A study of Homo sapiens with 18 samples.

Results

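Transcripts of 7 genes, luminal identity factors of the prostate and epithelial markers, were followed in 22RV1 cells given the compound UT-143 or its solvent. The genes are the transcription factors FOXA1, HOXB13 and GATA2, the keratins KRT8 and KRT18, and the cell-surface proteins EPCAM and CDH1. They were chosen by transcript identifier, and all 8 identifiers sought were found among the 35246 rows of the deposited table. KRT18 was sought by 2 identifiers and each other gene by 1. Whether the table holds further transcripts of these genes is not known. The gene of each identifier came with that choice, since the gene tables used here pair none of the 35246 identifiers with a gene.

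22RV1 is an established human prostate cancer cell line. It carries the androgen receptor both in full length and as truncated splice variants that lack the ligand-binding domain. The study's title concerns covalent inhibitors of those splice variants, and UT-143 is the compound its labels name. RNA was sequenced from 3 libraries of cells given the vehicle DMSO and 3 of cells given 10 µM UT-143, both for 20 to 24 hours. The labels do not say that the 3 libraries of a group came from separate cultures, so the p-values below measure the spread between these libraries, which may be technical. Of the 18 samples in the series, the 12 open-chromatin samples were not analysed here.

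Luminal cells form the secretory layer of the prostate epithelium, and most prostate cancers keep their gene programme. FOXA1, a forkhead protein, and GATA2, a zinc-finger protein, are pioneer factors that open chromatin at sites where the androgen receptor binds, and HOXB13 is a homeodomain protein that binds at many of the same sites. KRT8 and KRT18 are the type II and type I keratins that pair into the intermediate filaments of simple epithelia. EPCAM is an adhesion glycoprotein of epithelial cells, and CDH1 (E-cadherin) is the cadherin of their adherens junctions.

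After UT-143 the transcripts of the keratin pair rose, KRT8 by 1.88-fold and the 2 KRT18 rows by 1.61-fold and 1.62-fold. These are 3 of 8 rows called higher, where 1.29% of all rows were. All 3 calls were lost when any 1 library other than UT-143 replicate 3 was left out. The values of HOXB13, GATA2 and EPCAM were higher in all 3 UT-143 libraries than in all 3 vehicle libraries, by 1.19-fold to 1.35-fold, but did not pass the test with 6 libraries. Such a full separation upward was met in 13.1% of all rows. The value of FOXA1 went the other way and was 0.624 of its vehicle level, which did not pass the test either. Its groups separated fully downward, as did those of 22.3% of all rows. CDH1 was higher in UT-143 replicates 1 and 2 but not in replicate 3. Values are CPM (counts per unit of library size), which the authors rounded to whole numbers. Changes and folds are on the log2(CPM + 1) scale, which slightly understates them. Tests are limma fits over all 35246 rows with Benjamini-Hochberg adjustment and a threshold of 0.05. In a fit of only the 10908 rows with a mean of at least 20 CPM, all 8 rows among them, 366 were called higher.

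All 8 rows were detected in every library, at 32 to 333 CPM, so the line showed each of these luminal and epithelial transcripts with and without the compound. CPM is not divided by transcript length, so levels are not compared between genes. In such bulk libraries a change in the share of cells that hold a transcript and a change in its amount per cell cannot be told apart.

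**Figure D1:**
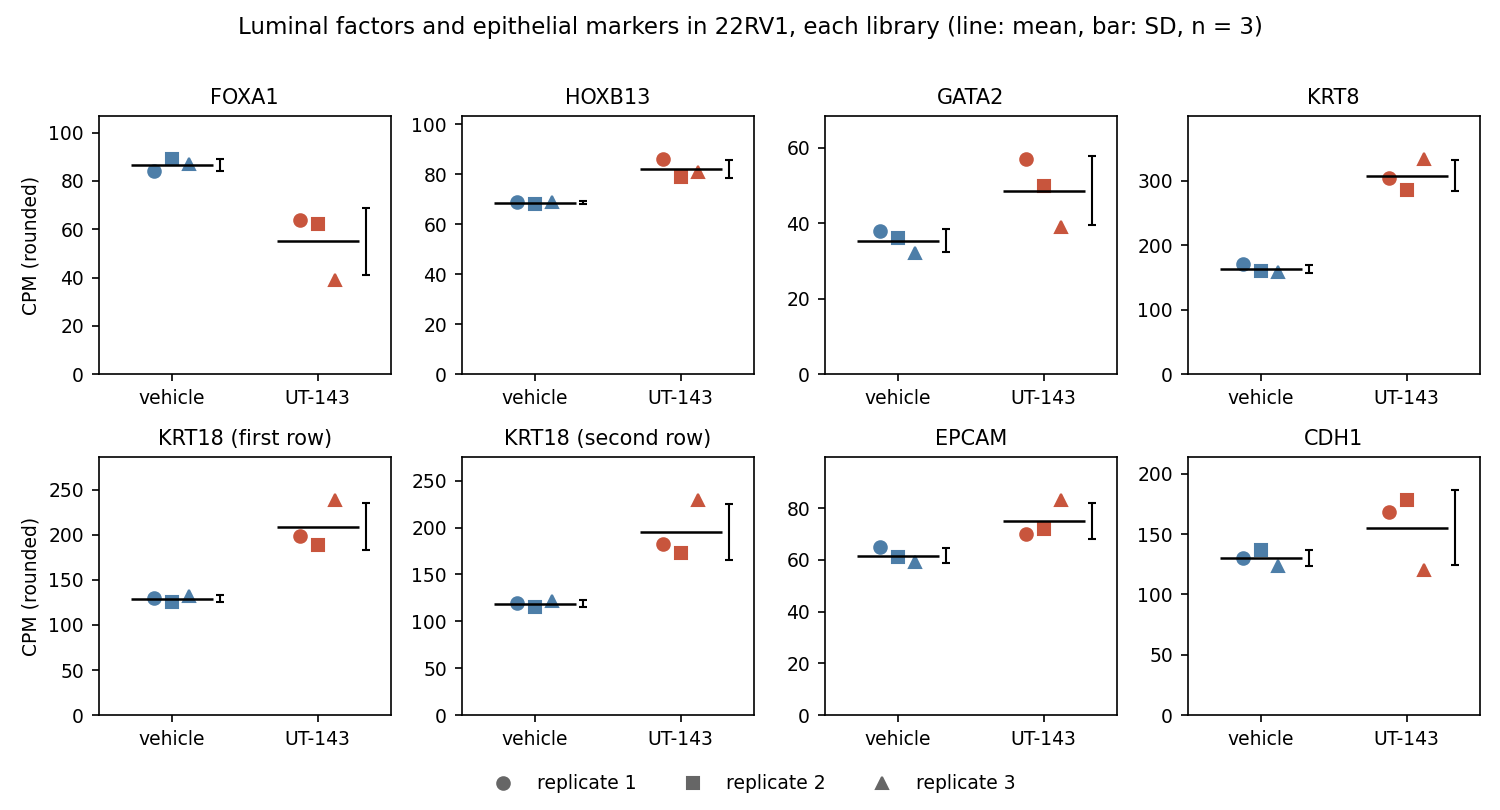
Rounded CPM (vertical axis, from 0, different in each panel) of the 8 rows in the 3 vehicle and 3 UT-143 libraries. Points are libraries, with the replicate number as symbol, lines are group means and bars are SD (n = 3). The groups stay apart in each panel except that of CDH1, where UT-143 replicate 3 (120 CPM) lies below the vehicle values, and FOXA1 is the row whose UT-143 values lie below vehicle.

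UT-143 replicate 3 differed from the other 5 libraries and bears on every value below. Across all rows its log2(CPM + 1) correlated at 0.888 and 0.895 with UT-143 replicates 1 and 2, which correlated at 0.993 with each other. With the vehicle libraries it correlated at 0.816 to 0.852, and UT-143 replicates 1 and 2 at 0.953 to 0.966. Rows of at most 5 CPM made up 18.9% of it and 5.81% to 8.14% of the others. Its listed values summed to 923170 CPM, against 889253 to 900414. Results are therefore given with all 6 libraries and without UT-143 replicate 3. What set this library apart was not tested.

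FOXA1 (ENST00000250448.5) had the only lower level of the 8 rows. RefSeq places the gene on chromosome 14 at 37589552 to 37595249 (GRCh38.p14, a patch release of the assembly also called hg38). Its row read 84, 89 and 87 CPM in the vehicle replicates and 64, 62 and 39 CPM in the UT-143 replicates (1 to 3 in order, here and below). Every UT-143 value lay below every vehicle value, as in 22.3% of all rows, and UT-143 replicate 3 was the lowest. The mean was 86.7 ± 2.5 CPM in vehicle and 55.0 ± 13.9 CPM after UT-143 (SD, n = 3 each). The log2 difference was -0.68 ± 0.20 (standard error), with a 95% interval of -1.17 to -0.19 (limma, adjusted p = 0.11). Without UT-143 replicate 3 the change was -0.45 with a standard error of 0.038, and FOXA1 fell in that fit (limma, adjusted p = 0.0080). UT-143 replicate 3 thus had the larger difference but also widened the spread, lying 0.68 below the mean of UT-143 replicates 1 and 2 on the log2 scale.

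The 250 bases before the RefSeq start of FOXA1 are shown because its level lay on the other side of vehicle from the other luminal factors and it codes for a forkhead protein, whose own motif can be looked for there. They lie at chr14:37595250-37595499 (GRCh38.p14, minus strand), are printed 5′ to 3′, and carry the matched motif in capitals.
FOXA1 upstream window: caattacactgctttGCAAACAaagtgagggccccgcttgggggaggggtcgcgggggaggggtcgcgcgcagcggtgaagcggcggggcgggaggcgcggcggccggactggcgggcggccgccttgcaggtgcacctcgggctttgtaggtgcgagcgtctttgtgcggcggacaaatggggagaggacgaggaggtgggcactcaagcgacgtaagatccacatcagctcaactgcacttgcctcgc
The motifs searched on both strands were the forkhead core TGTTTAC or TGTTTGC, the GATA motif AGATAA, the HOXB13 motifs CCAATAAA or CTCGTAAA, and the androgen receptor half-site AGAACA. The FOXA1 window held 1 match, to the forkhead letters TGTTTGC on the opposite strand at bases 16 to 22 of the window. A forkhead match was present in 6.09% of the 35116 upstream windows of the same length in the RefSeq table, a GATA match in 9.17%, a HOXB13 match in 0.977% and a half-site match in 12.4%. The table also gives 2 windows for GATA2, before the starts at 128493201 and 128488530 of chromosome 3, and 1 for KRT8, before a start at 52926469 of chromosome 12, and these held 0 matches to any of the letters. Which of those starts belongs to the row measured is not given. A match describes the letters and shows no binding.

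HOXB13 (ENST00000290295.8, chromosome 17 at 48724763 to 48728750) had the smallest spread of the 8 rows in vehicle. It read 69, 68 and 69 CPM in vehicle and 86, 79 and 81 CPM after UT-143. The UT-143 values lay above the vehicle values without overlap, and UT-143 replicate 3 lay between the other UT-143 libraries. The mean went from 68.7 ± 0.58 to 82.0 ± 3.6 CPM (SD, n = 3 each). This is a log2 difference of 0.25 ± 0.080 (standard error; limma, adjusted p = 0.13). A similar HOXB13 difference, 0.26 ± 0.046 (standard error), passed the threshold once UT-143 replicate 3 was dropped (limma, adjusted p = 0.031). That fit called 8.65% of all rows higher. Dropping any 1 of the other 5 libraries gave 0.22 to 0.28, which did not pass (limma, adjusted p 0.18 to 0.37).

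GATA2 (ENST00000341105.7, chromosome 3 at 128479422 to 128493201) codes for the zinc-finger protein among these factors. Its vehicle values were 38, 36 and 32 CPM and its UT-143 values 57, 50 and 39 CPM. The groups came within 1 CPM of each other, between vehicle replicate 1 and UT-143 replicate 3, which is no more than the rounding of both values allows. The mean went from 35.3 ± 3.1 to 48.7 ± 9.1 CPM (SD, n = 3 each). On the log2 scale this is 0.44 ± 0.16 (standard error; limma, adjusted p = 0.16). Without UT-143 replicate 3 the change was 0.59 with a standard error of 0.10, and GATA2 rose in that fit (limma, adjusted p = 0.029). UT-143 replicate 3 lay 0.44 below the mean of UT-143 replicates 1 and 2 on the log2 scale.

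KRT8 (ENST00000293308.11, chromosome 12 at 52897191 to 52949860) rose the most of the 8 rows. It read 170, 160 and 159 CPM in vehicle and 304, 285 and 333 CPM after UT-143. The lowest UT-143 value was thus 285 CPM against a highest vehicle value of 170 CPM, so that the distance between the groups exceeded the range within either. The mean went from 163.0 ± 6.1 to 307.3 ± 24.2 CPM (SD, n = 3 each). The log2 difference was 0.91 ± 0.098 (standard error; limma, adjusted p = 0.027). This is 1.88-fold, with a 95% interval of 1.59-fold to 2.21-fold. In the 5 libraries without UT-143 replicate 3 the change was 0.85 ± 0.052 (standard error; limma, adjusted p = 0.0053).

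KRT18 (chromosome 12 at 52948855 to 52952906) rose in both of the rows sought for it. ENST00000388835.4 read 130, 125 and 132 CPM in vehicle and 199, 189 and 238 CPM after UT-143. ENST00000388837.6 read 120, 115 and 122 CPM in vehicle and 183, 173 and 229 CPM after UT-143. In each row the UT-143 values lay above the vehicle values, and UT-143 replicate 3 was the highest. The first row went from 129.0 ± 3.6 to 208.7 ± 25.9 CPM (SD, n = 3 each). The log2 difference was 0.68 ± 0.11 (standard error; limma, adjusted p = 0.041). The second row changed by 0.70 ± 0.13 (standard error; limma, adjusted p = 0.049), close to the threshold. The changes were 0.58 and 0.58 without UT-143 replicate 3 (limma, adjusted p = 0.0066 and 0.0070). The rows differed from each other by 9 to 16 CPM in any library, and they are 2 transcripts of 1 gene that may share reads, so they are not separate evidence.

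The keratin calls were lost, with changes of about the same size, when 1 of 5 libraries was left out. Leaving out any 1 of the other 5 libraries (vehicle replicates 1, 2 and 3 or UT-143 replicates 1 and 2) kept the change of KRT8 at 0.89 to 0.96 on the log2 scale, but the adjusted p in limma was then 0.12 to 0.21. The first KRT18 row had changes of 0.66 to 0.75 in those fits (limma, adjusted p from 0.12 to 0.24), and the second had 0.67 to 0.78 (0.12 to 0.25). No row of the table was called in those fits. With the replicate number as a block, which leaves fewer residual degrees of freedom, the adjusted p was 0.17 for all 3 keratin rows. The second KRT18 row also missed the threshold with a pseudocount of 0.25 (limma, adjusted p = 0.0501), with median-of-ratios scaling (0.052) and with robust moderation (0.052). In RefSeq, 52 genes are named as pseudogenes of KRT8 and 68 as pseudogenes of KRT18, and the spans of KRT8 and KRT18 share 1006 bases on chromosome 12. The sources used here do not say how reads shared by such copies were counted or whether the counting used strand.

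EPCAM (ENST00000263735.9, chromosome 2 at 47369311 to 47387020) read 65, 61 and 59 CPM in vehicle and 70, 72 and 83 CPM after UT-143. The groups did not overlap, and UT-143 replicate 3 was the highest library. The mean went from 61.7 ± 3.1 to 75.0 ± 7.0 CPM (SD, n = 3 each). The log2 difference was 0.28 ± 0.10 (standard error), with a 95% interval of 0.029 to 0.52 (limma, adjusted p = 0.16). EPCAM was the 1 row of the 8 that did not pass the threshold without UT-143 replicate 3 either, with a change of 0.20 (limma, adjusted p = 0.065), although it did so there after trimmed mean scaling (limma, adjusted p = 0.038).

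CDH1 (ENST00000261769.10, chromosome 16 at 68737292 to 68835537) was the 1 row whose groups overlapped. It read 130, 137 and 124 CPM in vehicle and 168, 178 and 120 CPM after UT-143. UT-143 replicates 1 and 2 lay above every vehicle value, whereas UT-143 replicate 3 lay below every vehicle value. The mean went from 130.3 ± 6.5 to 155.3 ± 31.0 CPM (SD, n = 3 each). The log2 difference was 0.23, with a 95% interval of -0.17 to 0.64 (limma, adjusted p = 0.38). Without UT-143 replicate 3 the change was 0.41 with a standard error of 0.059, and CDH1 rose in that fit (limma, adjusted p = 0.020). The direction of CDH1 in the 3 UT-143 libraries was therefore not uniform.

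**Figure D2:**
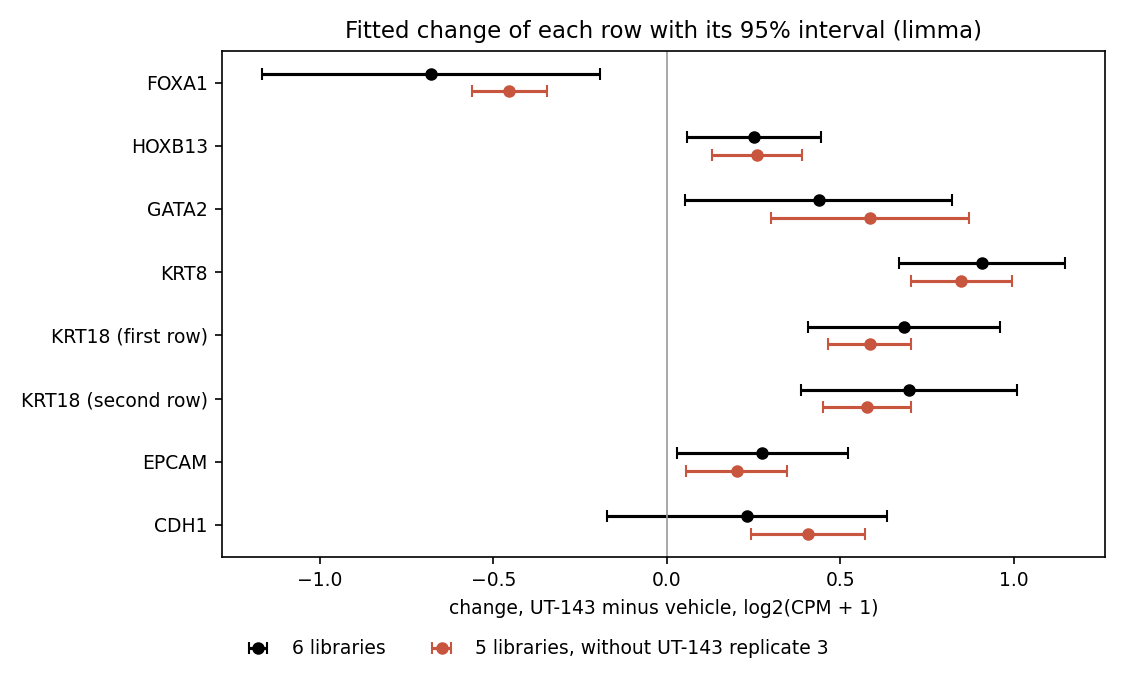
Change of each row (horizontal axis, UT-143 minus vehicle on the log2(CPM + 1) scale) with its 95% interval, from limma with 6 libraries (black) and without UT-143 replicate 3 (red). Only the CDH1 interval with 6 libraries, -0.17 to 0.64, includes 0; the intervals are not adjusted for the number of rows tested.

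Counted over the 8 rows, 3 were called higher and 0 lower with 6 libraries (limma, adjusted p under 0.05). The 3 are the rows of the keratin pair, 2 genes. Over all rows of the deposited data, 1.29% were called higher and 2.08% lower. The 8 rows are among the high ones, since only 0.497% (KRT8) to 11.7% (GATA2) of all rows had a higher mean. Of the 10908 rows with a mean of at least 20 CPM, 366 were called higher and 483 lower when fitted alone. At an unadjusted p under 0.05 in the limma fit of all rows, 6 of the 8 rows were higher and 1, FOXA1, was lower. In the fit without UT-143 replicate 3, 6 of 8 were called higher and 1 lower, against 8.65% and 14.6% of all rows. Leaving out any 1 of the other 5 libraries left 0 of the 8 rows, and 0 of all 35246 rows, called in either direction in limma. At an unadjusted p under 0.05, those 5 fits had 3 to 5 of the 8 rows higher and 0 to 1 lower, and 2161 to 3441 of all rows higher and 2919 to 5830 lower. Regardless of any test, 6 of 8 rows had their UT-143 values wholly above those of vehicle, against 13.1% of the table, and 1 of 8 had them wholly below, against 22.3%. The median change was 0.36 over the 8 rows and -0.058 over all rows on the log2 scale. These rows were picked with results of these data known, and 2 of them belong to 1 gene. The counts therefore describe these rows and are no test of luminal or epithelial genes as a group.

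By size of change, 0.579% of all rows had a larger change than KRT8, and 2.01% and 1.87% a larger one than the first and second KRT18 rows. GATA2 was exceeded by 7.80% of rows, EPCAM by 18.3%, HOXB13 by 20.1% and CDH1 by 21.7%. FOXA1 was exceeded by 92.5%, which put it about as far from the lower end as GATA2 was from the upper end. The keratins thus stood near the upper edge of the table and FOXA1 in its lower tail.

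**Figure D3:**
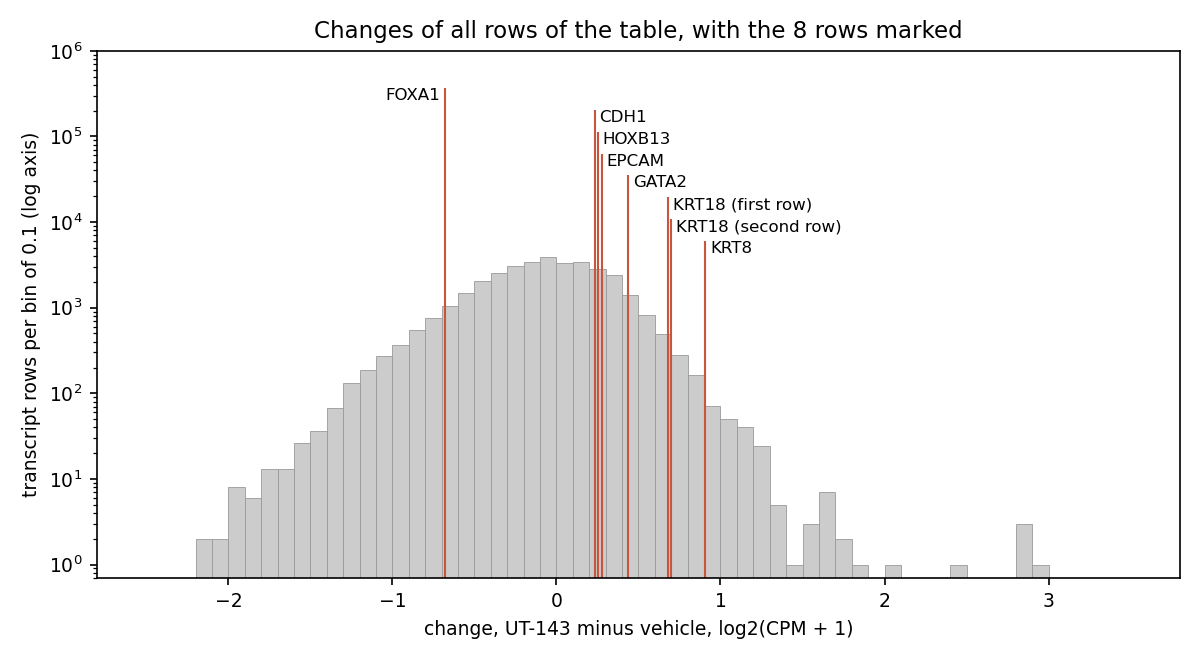
Number of rows (vertical log axis) per bin of 0.1 of the change (horizontal axis, UT-143 minus vehicle, log2(CPM + 1), 6 libraries) over the 35246 rows, with the 8 rows marked by red lines whose height has no meaning. KRT8 at 0.91 and the KRT18 rows at 0.68 and 0.70 lie in the upper tail, and FOXA1 at -0.68 lies in the lower one.

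Ratios of rows within a library hardly depend on the scaling between libraries, and 6 were compared between the groups with 2-sided exact permutation tests. With 3 libraries against 3 the exact permutation test cannot go below p = 0.1. Here a difference of ratios says that the rows changed unequally and does not say which of them moved. FOXA1 was lower, and HOXB13, GATA2 and KRT8 higher, in every UT-143 library than in every vehicle library. The ratios of FOXA1 with any of these rows therefore had to separate and to give an exact permutation p of 0.1. Their tests restate the rows' own values and add no evidence.

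FOXA1 against its fellow luminal factors gave groups that did not overlap, which the opposite separation of the rows themselves had fixed. The log2 ratio of FOXA1 to HOXB13 was 0.28, 0.38 and 0.33 in vehicle and -0.42, -0.34 and -1.04 after UT-143. It differed by -0.93 between the groups (exact permutation p = 0.1, adjusted over the 6 ratios 0.15). The log2 ratio of FOXA1 to GATA2 was 1.12, 1.28 and 1.42 in vehicle and 0.16, 0.30 and 0.0 after UT-143. It differed by -1.12 (exact permutation p = 0.1, adjusted 0.15). UT-143 replicate 3 had the lowest FOXA1 share in both. Without it the differences were -0.71 and -1.04, so both ratios were also lower in UT-143 replicates 1 and 2 alone.

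KRT8 against its partner also gave groups that did not overlap. The log2 ratio of KRT8 to the first KRT18 row was 0.38, 0.35 and 0.27 in vehicle and 0.61, 0.59 and 0.48 after UT-143, a difference of 0.23 (exact permutation p = 0.1, adjusted 0.15). The log2 ratio of KRT8 to FOXA1 had the largest difference of the 6, from 0.90 ± 0.092 to 2.49 ± 0.49 (SD, n = 3 each), or 1.59 (exact permutation p = 0.1, adjusted 0.15). Its separation, too, was fixed by the opposite separation of the KRT8 and FOXA1 rows. The 2 KRT18 rows kept a log2 ratio of 0.11 to 0.12 in all libraries except UT-143 replicate 2, at 0.13, and UT-143 replicate 3, at 0.055. Their group difference was -0.015 (exact permutation p = 1).

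CDH1 against EPCAM set UT-143 replicate 3 apart. This log2 ratio was 0.99 to 1.15 in vehicle, 1.25 and 1.29 in the first pair of UT-143 replicates, and only 0.53 in UT-143 replicate 3. The group difference of -0.044 (exact permutation p = 1) joins values on both sides of vehicle. It was 0.21 without that library.

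**Figure D4:**
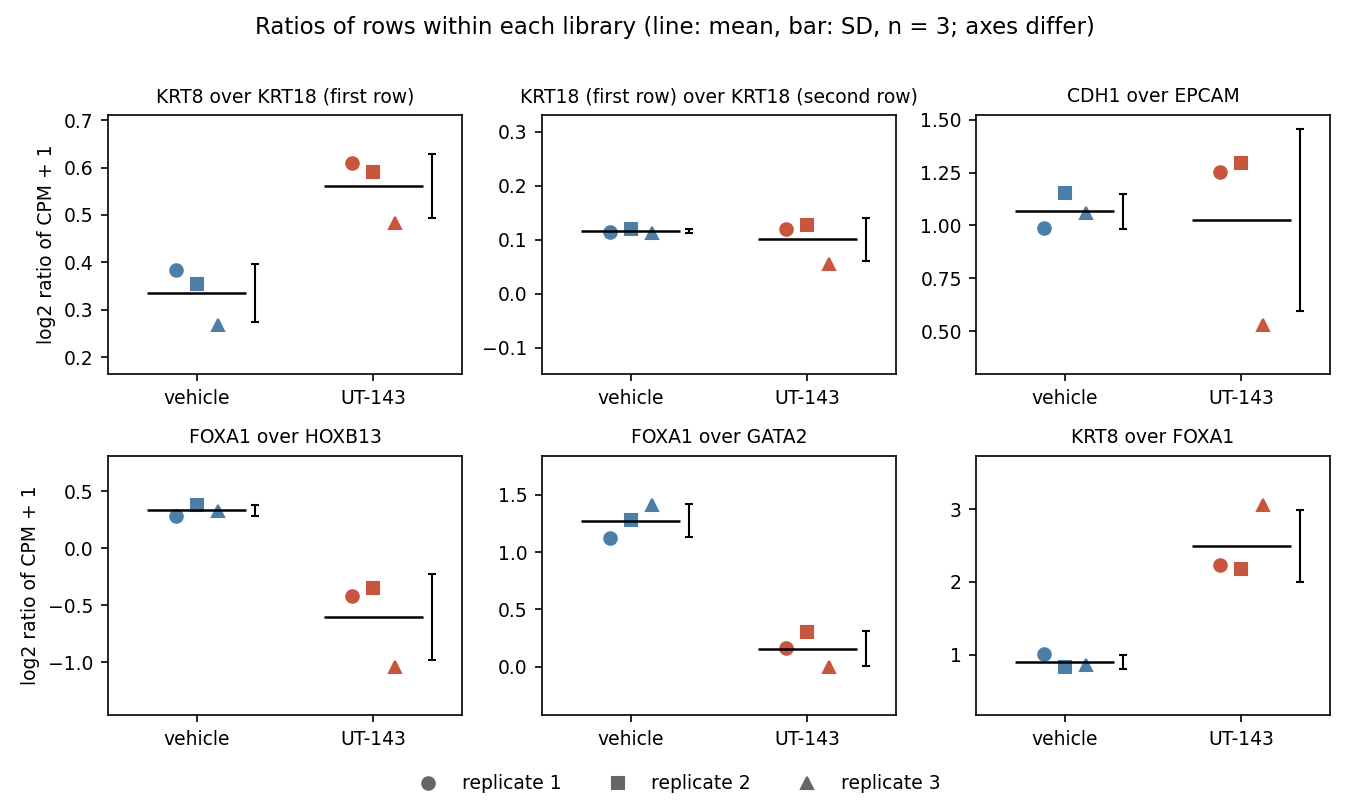
Log2 ratio of CPM + 1 between rows within each library (vertical axes differ and do not start at 0) for the 6 ratios, with group means (lines) and SD (bars, n = 3). The vehicle and UT-143 libraries are apart for KRT8 over KRT18, FOXA1 over HOXB13, FOXA1 over GATA2 and KRT8 over FOXA1, and UT-143 replicate 3 stands alone in CDH1 over EPCAM at 0.53.

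Across the members, UT-143 replicate 3 lay above UT-143 replicates 1 and 2 for the keratins and EPCAM and below them for FOXA1, GATA2 and CDH1. On the log2 scale its distance from their mean was 0.18 for KRT8, 0.29 and 0.36 for the KRT18 rows and 0.22 for EPCAM. It was -0.68 for FOXA1, -0.52 for CDH1 and -0.44 for GATA2. For HOXB13 it was -0.025.

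For each member the rows with the most similar pattern were sought by Pearson correlation of log2(CPM + 1) over the 6 libraries, among 10907 other rows with a mean of at least 20 CPM. KRT8 was most like ENST00000550170.5 (r = 0.9999), which read 150, 139 and 140 CPM in vehicle and 268, 251 and 296 CPM after UT-143, and ENST00000546583.5 (r = 0.9998). FOXA1 was most like ENST00000240423.9 (r = 0.9997), at 24, 26 and 25 CPM in vehicle and 18, 17 and 10 CPM after UT-143, and ENST00000369466.9 (r = 0.9994). These are correlations over libraries of 2 groups, and the genes of those rows are not given. Whether any of them is another transcript of the member's own gene is therefore not known. The number of rows with r above 0.99 was 262 for FOXA1, 36 for KRT8, 38 and 54 for the KRT18 rows, 73 for EPCAM, 9 for HOXB13, 6 for GATA2 and 2 for CDH1. The pattern of FOXA1, with a further drop in UT-143 replicate 3, was thus met most often among the patterns of the 8 rows, and that of CDH1 least often.

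The authors' deposited table gives ratios of UT-143 to vehicle means of 1.89 for KRT8, 1.62 and 1.64 for the KRT18 rows, 1.38 for GATA2, 1.22 for EPCAM, 1.19 for HOXB13 and for CDH1, and 0.635 for FOXA1. In the authors' deposited table the unadjusted p-value was 0.0065 for KRT8, 0.031 and 0.046 for the KRT18 rows and 0.021 for HOXB13. It was 0.054 for FOXA1, 0.064 for EPCAM, 0.11 for GATA2 and 0.30 for CDH1 in the authors' deposited table.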

How the data were processed

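RNA sequencing of 22RV1 cells (3 vehicle and 3 UT-143 libraries) was used. Build hg38 and the tools STAR 2.7.10a, HOMER and FastQC are listed in the submitters' processing notes. The way reads were counted per transcript is not given in the sources used here. The deposited library values are called CPM by the table's name and hold whole numbers, so they were treated as a normalized score that the authors had rounded, not as counts. The depth in reads is unknown. Rows summing to less than 30 are not listed in the table. Group means and row sums (CPM signal), a ratio of means, its signed score and an unadjusted p-value are the authors' own columns of that table.

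Values were transformed as log2(CPM + 1) and fitted with limma 3.58.1 in R 4.3.3 (1 term for the group, trended empirical Bayes moderation, Benjamini-Hochberg adjustment over all 35246 rows). The fit was tried on data simulated from the vehicle means and spreads, with no library made to stand apart. That trial therefore does not cover a library such as UT-143 replicate 3. Groups came from sample titles and columns from the identifiers in the sample descriptions. All 8 member rows are reported whatever their values, and the members and lists were chosen with earlier results of these data known. Lists of further luminal, junction, basal, neuroendocrine, mesenchymal, fibroblast and leukocyte genes were not used, since no table pairs the transcripts with genes. Gene positions, promoter windows and pseudogene names came from RefSeq tables of GRCh38.p14, where FOXA1, GATA2 and KRT8 had windows and HOXB13, KRT18, EPCAM and CDH1 were not matched. Alternatives were other pseudocounts, scalings, filters and moderation, the replicate block and each library left out, and the 5-library fit with trimmed mean scaling was chosen after seeing the data. Matplotlib 3.10.9 drew the figures.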

Additional observations from a re-analysis of the deposited data

How the results depend on the processing

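The 8 changes kept their sign in all 17 alternatives each. KRT8, the first KRT18 row and the second KRT18 row passed the threshold in 11, 11 and 8 of the 17, with adjusted p in limma from 0.000355 to 0.21, 0.000954 to 0.24 and 0.0010 to 0.25. The other rows passed only in the fits without UT-143 replicate 3. The counts of 3 members higher and 0 lower became 0 to 6 higher and 0 to 1 lower when 1 library was left out, and 7 higher and 1 lower in the 5-library fit with trimmed mean scaling. Over all rows, 456 higher and 732 lower became 734 higher with trimmed mean scaling, 696 higher with median-of-ratios scaling, and 1409 higher and 1966 lower with quantile normalization. In a fit of only the 10908 rows with a mean of at least 20 CPM, 366 were higher and 483 lower. Leaving out 1 library gave 0 to 3048 higher and 0 to 5158 lower, and 5 libraries with trimmed mean scaling gave 5558 and 5923. With the replicate block, limma called 0 rows higher and 0 lower and 0 members higher, with 3070 and 4871 rows and 5 members at an unadjusted p under 0.05. Same-numbered libraries correlated at -0.41, 0.52 and 0.039 in their deviations, and 2 of 6 correlated best with their own number. With 3 libraries per group and UT-143 replicate 3 apart, this cannot show whether same-numbered libraries were handled together. The labels give them only a shared number. Leaving out 1 library moved the difference of the CDH1 to EPCAM log2 ratio between -0.18 and 0.21, and that of the KRT18 rows between -0.028 and 0.0081. The cause of these changes was not tested. Rounding to whole CPM limits the precision of each value.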
